A study of Drosophila melanogaster with 3 samples.

Results

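The insertions described here belong to the Gypsy group of long terminal repeat (LTR) retrotransposons in *Drosophila melanogaster*. They were taken from a list of transposable element (TE) insertion calls by family name alone, using *opus*, _297_, _17.6_, *Transpac*, *Burdock*, *HMS-Beagle*, *Quasimodo*, *accord*, *Tirant*, *gypsy*, *rover*, *springer*, *nomad* and *Idefix*, with no minimum on any measured value. Of the 14 names, 13 were found (*nomad* was not among the calls), and together they account for 236 of the 1702 calls. The study sequenced genomic DNA of adult females of the strain Oregon-R *w1118* (ORw1118) in 3 replicates of 100 flies each, which the authors pooled before calling TEs. There was 1 group and no treatment, so each call has 1 pooled value and no spread between replicates, and the intervals given with values are 95% intervals of counting error only.

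Gypsy-group elements copy themselves through an RNA that is reverse transcribed and integrated by proteins of their *gag* and *pol* genes, and the integrated copy is framed by LTRs that are alike when it integrates. Several of them, among them *gypsy*, _17.6_, _297_, *Idefix* and *Tirant*, also carry an envelope-like gene resembling that of retroviruses. *gypsy* is held back in the follicle cells of the ovary by piRNAs from the *flamenco* locus and contains an insulator bound by the protein Su(Hw), through which some classical *gypsy* insertions alter the expression of the gene they sit in.

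A call rests on split reads, which join TE sequence to the flanking DNA on either side of an insertion. The deposited coverage ratio divides these supporting reads by the reads that cross the site without the TE, after 1 is added to the latter. Supporting reads are summed over both sides, so the ratio orders the calls but is not the share of flies with the insertion. Fewer chromosomes with an insertion in the pool lower the ratio, whether fewer flies have it or flies have it on only 1 homolog. Reads that cannot be aligned at a site can lower either of its terms, and so lower or raise the ratio. These influences cannot be told apart here. A ratio of at least 3 is the recommended minimum of TIDAL, the caller used. TEs were called in 2 ways, once with each read of a pair taken as a single-end read and once with overlapping pairs merged into 1 read, and values are of the first list unless the merged list is named. The list held a median of 37 supporting reads per call (4 to 197) and the merged list, with 1487 calls, a median of 26 (4 to 109).

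Among the Gypsy-group calls, 57 of 236 reached a coverage ratio of at least 3, or 24.2% (18.8 to 30.1%), compared with 16.4% of all calls and with 222 of the 1466 calls of other families, or 15.1% (13.4 to 17.1%). In the merged list the Gypsy-group share was 25.3% (55 of 217), against 18.6% of all calls. The share was close to that of *roo*, an LTR element of the BEL/Pao superfamily (68 of 302, 22.5%), and to that of _412_, *mdg1*, *mdg3* and *blood* combined (38 of 167, 22.8%). These are among the calls of other families, which are all those off the list of names and also hold *gypsy6*. The contrast is thus not one of all Gypsy elements against other TEs. The median ratio of the Gypsy-group calls was 1.4 with an interquartile range of 0.5 to 2.9, and the median of the calls of other families was 0.8. Calls are separate loci of 1 pool of DNA and not replicates, so no test between families was made.

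Groups of calls formed by the ratio differed in the medians of both of its terms. The 53 Gypsy-group calls with a ratio under 0.5 had medians of 11 reads with the TE and 44.6 without it. The 59 calls between 1 and 2 had medians of 50 and 35.7. The 9 calls of at least 5 had medians of 115 and 18.4, and the 56 such calls of other families 138 and 19.1. More reads with the TE and fewer without it at high ratios follow largely from grouping by their ratio.

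The families differed widely in number and in ratio. *opus* had the most calls, 48, and 17 of them (35.4%, interval 22.2 to 50.5%) had a ratio of at least 3. _17.6_, with only 16 calls, had the highest share among families of more than 10 calls, 7 of 16 (43.8%, 19.8 to 70.1%). *Transpac* followed with 9 of 29 (31.0%, 15.3 to 50.8%). The intervals of these 3 families overlap almost wholly, so their order is not settled by the numbers of calls.

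*Burdock* reached the minimum in 6 of 26 calls and _297_ in 8 of 41. _297_ was thus nearly as numerous as *opus*, but its highest ratio was 4.8 and its median 1.6, against 7.7 and 1.85 for *opus*. *HMS-Beagle* had 2 such calls of 18, *springer* 3 of 20 and *Quasimodo* 1 of 17. Their medians were 0.95, 0.3 and 1.5. By the median *springer* stood lowest of the families with more than 10 calls, with 15 of its 20 calls under 1 and 13 under 0.5, whereas by the share at 3 or above *HMS-Beagle* (11.1%) and *Quasimodo* (5.88%) stood lower.

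Of the small families, *Tirant* held the highest ratio of all 236 calls, 8.7, and another of 7.0, while its other 6 calls lay between 0.3 and 1.5. The 7 *gypsy* calls lay between 0.1 and 2.3, so none reached 3, and a count of 0 of 7 still allows a share of up to 41.0%. *rover* had 1 such call of 3 and *Idefix* none of 2. The single *accord* call had a ratio of 3.8.

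**Figure D1:**
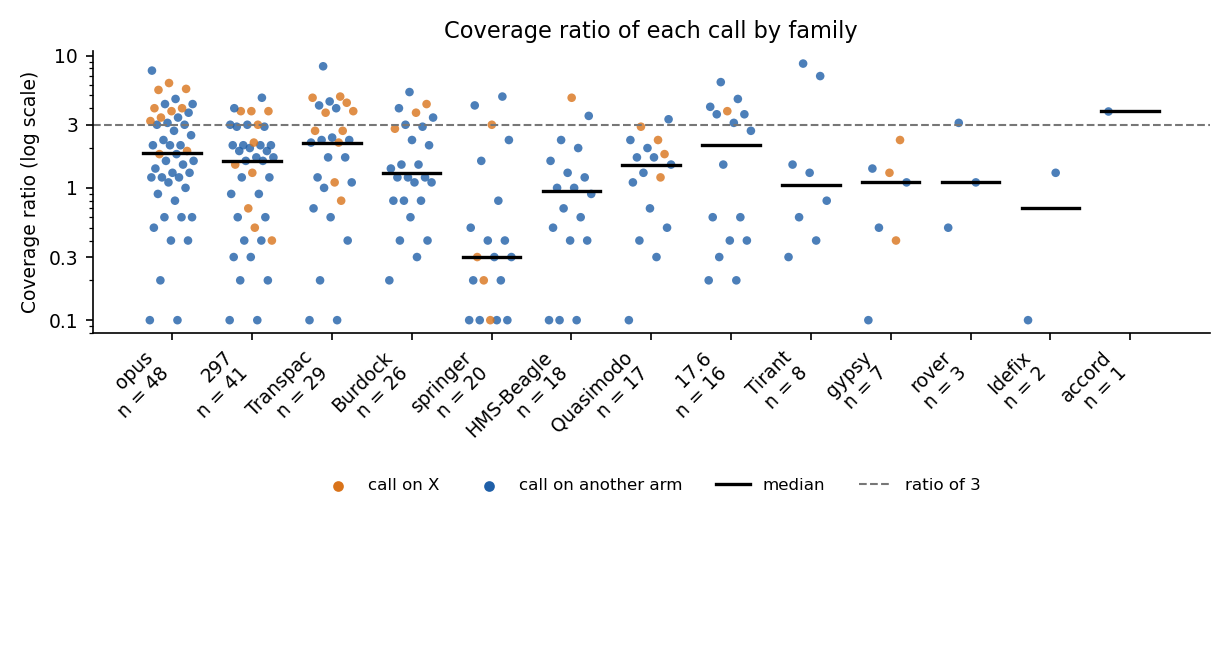
Coverage ratio (log scale) of each of the 236 calls, by family, with calls on X in orange, the other arms in blue, the family median as a bar and a ratio of 3 as a dashed line. *Tirant* reaches 8.7, *springer* has 13 of 20 calls under 0.5, and all 7 *gypsy* calls lie under 3.

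All breakpoints mapped to the ends of the elements. For each call, the list gives 2 positions on the consensus sequence of the family, 1 per junction. In every family these positions fell into a block at the start and a block at the end of the consensus, of 7 to 495 bp each, with at least 4606 bp between them that held no position in either list. For *opus* the blocks ran from 1 to 495 and from 7022 to 7491, for *springer* from 1 to 371 and from 7141 to 7513, and for *Transpac*, the shortest, from 2 to 311 and from 4918 to 5226. The size of the first block came near that of the second in the families with many calls (391 and 395 bp in _297_, 252 and 254 bp in *Burdock*). An LTR stands at both ends of such an element, and a read from it can match both.

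After the positions of both blocks were set on 1 LTR, the order of the junctions along the chromosome was clear, with more than 150 bp between them, in 195 of 236 calls. By this rule it could not be clear in *Quasimodo*, *accord* or *Idefix* (17, 1 and 2 calls), whose blocks of 7 to 113 bp were shorter than this distance. Their order was not read in another way. The start of the LTR came first in 93 of the 195 (47.7%, 40.5 to 55.0%). All 178 calls with a clear order in both lists had the same order in both. Among 107 calls inside 1 gene, the start came first along the strand of the gene in 49 (45.8%, 36.1 to 55.7%), and in introns in 42 of 83 (50.6%, 39.4 to 61.8%). Neither order prevailed beyond counting error. Which junction the list gives first was taken from the order of its columns, and reading it the other way exchanges both classes.

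The X chromosome carried 46 of the 236 calls (19.5%, 14.6 to 25.1%) and 231 of the 1466 other calls (15.8%). On X, 22 of 46 Gypsy-group calls had a ratio of at least 3 (47.8%, 32.9 to 63.1%), with a median of 2.85. On the arms of chromosomes 2 and 3, 35 of 189 did (18.5%, 13.3 to 24.8%), with a median of 1.2. The 2 intervals do not overlap, but they treat each call as an independent draw, and no test between chromosomes was made. The merged list gave 23 of 43 on X (53.5%) and 32 of 173 on the arms (18.5%).

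The difference was present in the reads of both kinds, with medians of 82 supporting and 29.4 reference reads on X and 47 and 36.4 on the arms. It was not particular to these families. Calls of other families had such a ratio in 34.2% of 231 calls on X and in 11.5% of 1216 on the arms. For *roo* the numbers were 30 of 67 on X and 37 of 230 on the arms, and for _412_, *mdg1*, *mdg3* and *blood* 13 of 24 and 25 of 142.

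Within the families, *opus* had the clearest separation, with 8 of 10 calls on X at a ratio of at least 3 (80.0%, 44.4 to 97.5%) and 9 of 38 elsewhere (23.7%, 11.4 to 40.2%). Its medians were 3.9 on X and 1.45 on the arms. For *Transpac* they were 3.2 (n = 10) and 1.7 (n = 19), and for *Burdock* 3.7 (n = 3) and 1.2 (n = 23). The 10 _297_ calls on X had a median of 1.85, near the 1.6 of the 31 others. However, 4 of the 10 _297_ calls on X and 4 of the 31 others reached 3. In the merged list, 2 of 10 _297_ calls on X and 4 of 26 on the arms did. *springer* ran the other way in its median, with 0.25 on X (n = 4) and 0.35 elsewhere, but 1 of 4 calls on X and 2 of 16 elsewhere reached 3. The median was higher on X in 6 of the 7 families with at least 3 calls in each place, of which *gypsy* turned round in the merged list, with 0.8 on X and 1.2 on the arms. Without *opus* the share on X was 38.9%, and that on the arms 17.2%.

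The autosome arms differed less. A ratio of at least 3 was found in 8 of 36 calls on 2L, 11 of 49 on 2R, 11 of 56 on 3L and 5 of 48 on 3R, and 1 *gypsy* call lay on chromosome 4 with a ratio of 0.1. The share on 3R (10.4%, 3.47 to 22.7%) was the lowest of the 4 arms, as it was among the other calls (6.61%, 4.24 to 9.75%), but its interval overlaps those of the other arms. The median ratio on 3R, 1.4, was in contrast the highest of the 4 arms (1.3 on 2L and 2R, 0.95 on 3L).

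**Figure D2:**
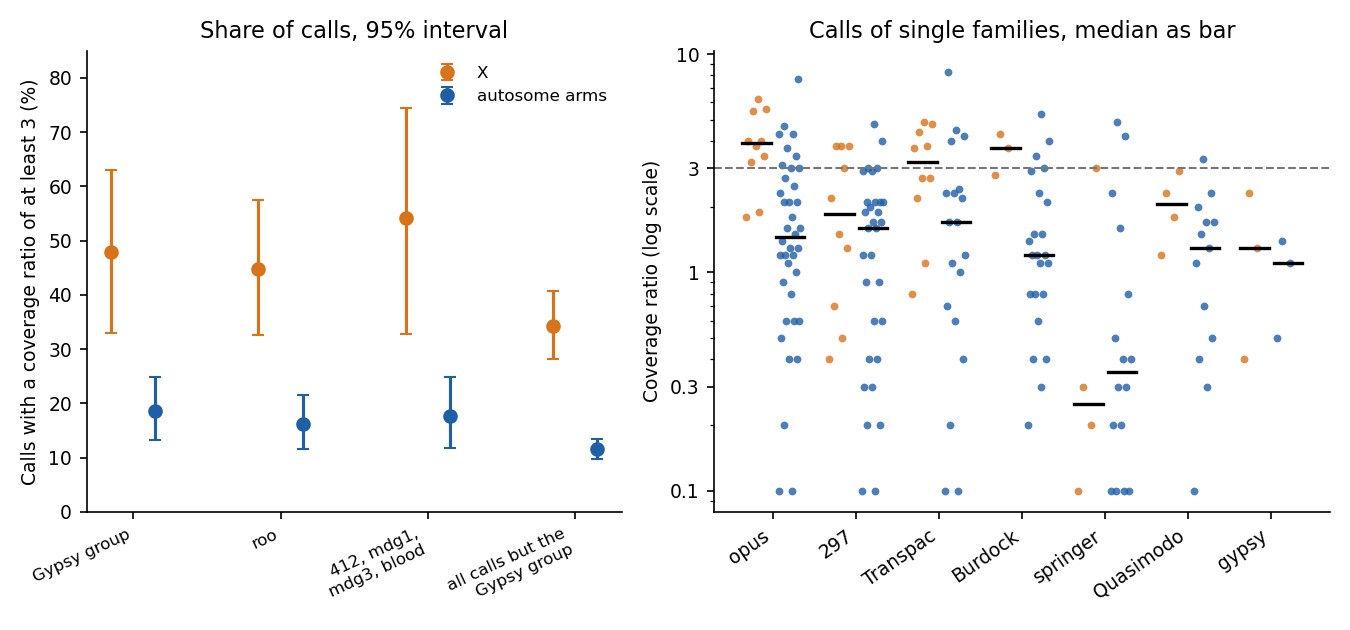
Left, percentage of calls at a ratio of 3 or above on X and on the arms of chromosomes 2 and 3, with 95% binomial intervals, for Gypsy-group families (47.8% and 18.5%), *roo*, _412_ with *mdg1*, *mdg3* and *blood*, and all other calls. Right, ratio (log scale) of each call in the 7 families with at least 3 calls in both places, X in orange and the arms in blue, where *springer* is the family whose median (bar) is not higher on X.

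Most of the calls lay in genes. Gene bodies of RefSeq (Release 6) overlapped 149 of 236 calls (63.1%, 56.6 to 69.3%), against 1018 of 1466 (69.4%, 67.0 to 71.8%), and these intervals overlap. The share of _412_, *mdg1*, *mdg3* and *blood*, which are among the latter, was 62.9%. By the deposited annotation 108 calls were in introns (45.8%, 39.3 to 52.4%) and 93 were intergenic, and of the other calls 55.4% (52.8 to 58.0%) were in introns. In the merged list the intron shares were 45.6% (38.9 to 52.5%) and 54.9% (52.1 to 57.6%), which overlap, and the interval of the Gypsy group also overlaps those of *roo* (46.2 to 57.7%) and of _412_ with its relatives (43.1 to 58.7%). The 3′ UTR held 18 calls (7.63%, 4.58 to 11.8%) where other families had 59 (4.02%, 3.08 to 5.16%), intervals that overlap. Exons held 11 calls, 5′ UTRs 4, and 2 calls touched several parts. The ratio differed little between these places. It was at least 3 in 34 of 149 calls inside gene bodies (22.8%) and 23 of 87 outside (26.4%), and in 25 of 108 in introns and 6 of 18 in 3′ UTRs.

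Among families of more than 10 calls, *opus* (36 of 48 calls, 75.0%, 60.4 to 86.4%) and *springer* (15 of 20) had the highest shares in gene bodies. The share over all calls, 68.6%, lies inside the interval of *opus*. In the merged list *springer* (14 of 17) stood above *opus* (36 of 47). *Transpac* lay in genes in 15 of 29 calls and *HMS-Beagle* in 9 of 18. The calls had 154 host genes. With a gene counted for each call in it, the median span of host genes was 28594 bp, and for other calls 31649 bp. All 17807 RefSeq genes on the arms had a median of 1695 bp. A longer gene takes up more sequence, and random sites were not compared. The 87 calls outside genes lay a median of 1820 bp from the nearest one (5 to 114640 bp).

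**Figure D3:**
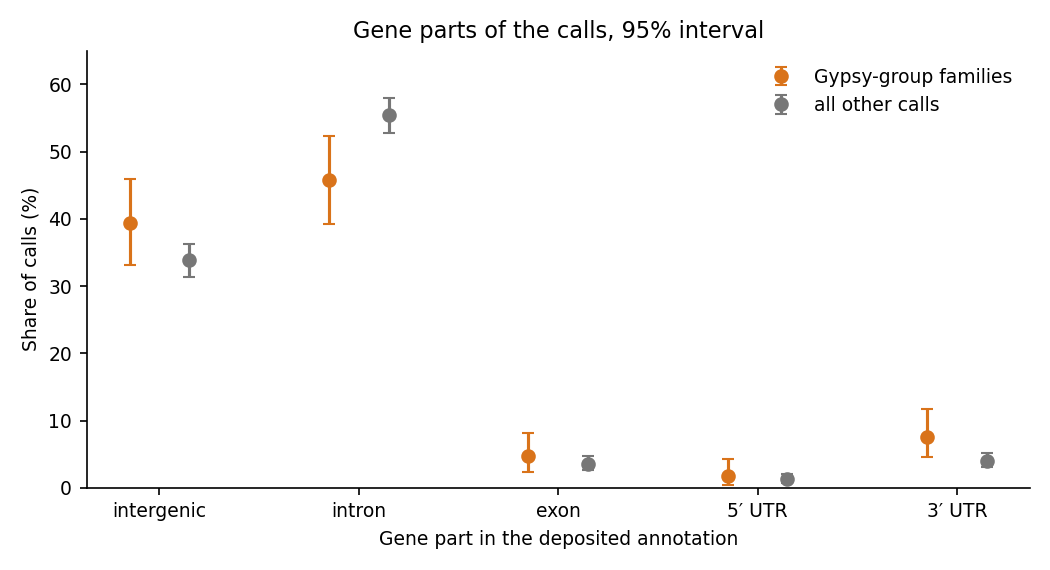
Share of the 236 Gypsy-group calls (orange) and of the 1466 other calls (grey) in each gene part of the deposited annotation, with 95% binomial intervals. Introns held 45.8% of Gypsy-group calls and 55.4% of the others, and 3′ UTRs 7.63% and 4.02%.

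The *opus* call with the highest ratio lay on 2L between 20570713 and 20570945, in an intron of the long non-coding RNA CR45347. It had 89 supporting reads, 52 and 37 on either side, and only 10.5 reference reads, giving a ratio of 7.7 (6.21 to 9.52, from the counting error of the supporting reads), and 12.8 in the merged list. This was the largest change between the lists among the 216 calls found in both, 5.1, and both values are far above 3.

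2 *opus* calls in 3′ UTRs on X came next. That in *ssx*, a relative of the sex determination gene *Sex-lethal*, lay between 1374322 and 1374554 with 139 supporting reads and a ratio of 6.2, and 6.4 in the merged list. That in *Rala*, a small GTPase of the Ras family, lay between 3705770 and 3705956 with 115 reads and ratios of 5.6 and 5.1. Also on X, an *opus* at 9028657 to 9028894 had ratios of 5.5 and 9.2. It lies over the non-coding RNA CR43836 and *rdgA*, the diacylglycerol kinase of photoreceptors.

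Introns on X held 4 more *opus* calls that reached 3 in both lists. The ratio was 4.0 in *DIP-alpha* (5.2 in the merged list), a cell surface protein of the immunoglobulin superfamily that the list names CG32791, 4.0 in CG43155 (4.9), 3.8 in CG3655 (4.4) and 3.2 where CG43902 and CR44894 overlap (3.1). On the autosomes, an *opus* in CG34398 had 4.3 (3.9) and another in *Eig71Ef*, 1 of a cluster of ecdysone-induced genes, 4.3 (4.5). The other 5 such calls were intergenic, with ratios from 3.0 (2R, from 2675573) to 4.7 (2R, from 21776924) and between them 3.7 on 2L, 3.4 on 3L and 3.4 on X.

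*opus* calls near the minimum changed side. The call in the 3′ UTR of CG16727 had 3.0 and 2.4 in the merged list, and that in *dpr21* (CG42596 in the list), of the Dpr family of neuronal surface proteins, 3.1 and 2.2. Exons and UTRs of *rhea*, the talin gene, and of 4 other genes held *opus* calls with ratios of 1.0 to 2.1.

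In _297_, the highest ratio, 4.8 and 3.9 in the merged list, was that of an intergenic call on 3L between 13360216 and 13360467, with 58 and 47 supporting reads. An intergenic call on 2L from 12906123 had 4.0 (3.5). On X, an intron of *dnc*, the cAMP phosphodiesterase needed for learning, held a _297_ with 94 supporting reads and a ratio of 3.8 (4.9), and an intergenic site from 13138123 another of 3.8 (3.5). These 4 were the _297_ calls at 3 or above in both lists.

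The remaining _297_ calls at the minimum fell under it in the merged list. They lay in introns of *sdt* (3.8 and 2.6), which encodes a scaffold of apical cell polarity, of *inaE* (3.0 and 2.6), a diacylglycerol lipase of phototransduction, and of CG34370 (3.0 and 2.8), and in the 3′ UTR of *wnd* (3.0 and 2.5), a kinase of the axon injury response. 2 others moved up, from 2.9 to 3.1 in *Ret* and from 2.9 to 3.0 in *Ptp99A*, genes of a receptor tyrosine kinase and a receptor tyrosine phosphatase. Except in *sdt*, with an interval of 3.13 to 4.62, each merged value lay inside the counting interval of the first, which for *wnd* ran from 2.42 to 3.59.

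All 7 _17.6_ calls of at least 3 kept this in the merged list. The highest, 6.3 (5.0), lay on 3L between 11578978 and 11579222 beside CG33270, with 97 supporting and 14.3 reference reads. An intron of CG5946 on 3L held 140 supporting reads and a ratio of 4.7 in both lists, and an intron of *Scp1*, a calcium-binding protein, a ratio of 4.1 (5.4). In 3′ UTRs, _17.6_ calls had 3.8 (4.1) in *tbc* on X, which the list names CG32506, and 3.6 (3.5) in CG15695 on 3R. The other 2 were intergenic, on 3L near CG32206 (3.6 and 4.1) and on 2R near *dpr21* (3.1 and 3.0).

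The 9 *Transpac* calls of at least 3 also kept this in the merged list, and 5 of them were on X. The highest lay on 3R between 29326407 and 29326678, not near genes by the deposited annotation, with 142 supporting reads and a ratio of 8.3 (8.4). An exon of CG14207, the fly counterpart of the small heat shock protein HSPB8, held 80 and 70 reads and a ratio of 4.8 in both lists, but its merged interval is annotated to an intron. CG7884 held one in an intron (3.8 and 3.7), and 4 intergenic calls had ratios from 4.0 to 4.5.

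The memory gene *radish*, called *rad* in the list and *rsh* in RefSeq, carried the other 2. One lay in an exon between 13031737 and 13031966 (4.9 and 6.6, again an intron in the merged list) and one in an intron between 12990844 and 12991077 (3.7 and 4.2). A *Quasimodo* call in the same gene had 2.3. None of the 7 exon calls of the merged list reached 3. *Transpac* calls in the 3′ UTR of CG33253 (2.7 and 3.0) and in an intergenic site on X from 18604832 (2.7 and 3.4) reached the minimum only with merged reads.

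*Burdock* was led by a call in an intron of the non-coding RNA CR44917 on 2L (5.3 and 4.4, 103 supporting reads), followed by an intergenic call on X (4.3 and 4.0). An intron of *Rim*, a scaffold of the presynaptic active zone, held a *Burdock* with 4.0 (5.3), and one on X lay where CG3777 and CG32816 overlap (3.7 and 3.8). An intergenic call on 2L had 3.4 (3.2). In the 5′ UTR of CR45234 the ratio rose from 2.9 to 3.9 in the merged list, and near CR44626 it went from 3.0 to 2.9.

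*HMS-Beagle* reached 3 in introns of *csw*, the SHP2-type tyrosine phosphatase of receptor kinase signaling (X, between 2108586 and 2108834, 4.8 and 4.7), and of *DIP-lambda*, named CG40378 in the list (2R, 3.5 and 3.4). Its next highest ratio was 2.3. *Quasimodo* did not have a call at 3 in both lists, since that on 3L from 22106682 had 3.3 and 2.3 and that on X from 21195444 had 2.9 and 4.1. The *accord* call, intergenic on 2L between 17889239 and 17889471, had 47 and 43 reads on its sides and 3.8 in both lists.

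Both high *Tirant* calls were on 2R. The intergenic one, between 17389148 and 17389362 and near CR44344, had 48 and 79 supporting reads, 13.6 reference reads and a ratio of 8.7 (7.25 to 10.3), 9.9 in the merged list, where its wider interval is annotated to the 3′ UTR of CR44344. The other lay between 15905047 and 15905281 in an intron of *sli*, the axon guidance ligand Slit, with 62 and 75 reads and ratios of 7.0 and 7.8. The next *Tirant* ratio, 1.5, was in an intron of *hoka*, so the family was split into 2 high and 6 low calls with none between 1.5 and 7.0.

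*rover* reached 3.1 (3.2) in an intron of *Eip75B*, an ecdysone-induced nuclear receptor. The higher *Idefix* call lay in the 3′ UTR of CG5697 (1.3 and 1.1), and its other call, in CG17111, rested on 4 reads. The highest *gypsy* call, on X between 6279761 and 6279991 in the 5′ UTR of the non-coding RNA CR45530, had 80 supporting reads and ratios of 2.3 and 2.8. Another *gypsy* in a 5′ UTR, that of CR43334, had 0.5, and the *gypsy* in *Ank* on chromosome 4 had 6 reads and 0.1.

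The loci of the classical *gypsy* insertions were read for all 13 families. *yellow*, *scute*, *Ubx* and *ovo* held no call of any family, and *cut* held 5 calls of which none was from the Gypsy group. The only Gypsy-group call was an *opus* in an intron of *forked*, the bristle gene encoding an actin bundling protein, between 17247875 and 17248113 on X, with 33 and 14 supporting reads and ratios of 1.8 and 1.9. *flamenco* held 1 call, of another family. A family that inserted in a stretch to which reads could not be aligned uniquely would not be seen here.

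8 genes held more than 1 Gypsy-group call. *pyd*, the ZO-1 of cell junctions, held 3, of *Transpac* (1.1), *opus* (0.4) and _297_ (0.1), among 7 calls of any family. *radish* held the 3 given above. *sdt* held _297_ calls of 1.5 and 3.8, *dpr21* *opus* calls of 0.1 and 3.1, and CG3777 a *springer* of 0.3 beside the *Burdock* of 3.7. In CG42747 the *opus* calls of 0.9 and 0.8 started 1094 bp apart, and in *Cngl*, related to cyclic nucleotide-gated channels, *Transpac* calls of 1.1 and 2.2 started 524 bp apart and neither was in the merged list. In the 3′ UTR of CG33253, a _297_ of 0.5 started 2 bp from the *Transpac* of 2.7, and their intervals overlap.

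Overlaps were found elsewhere too. The intervals of 12 Gypsy-group calls overlapped another call, and 49 of 236 (20.8%) had another call within 5 kb, as did 21.4% of other calls. 5 of the 12 were *springer* calls that overlapped a call of *gypsy6*, a family outside the group as chosen here, and this was noticed after the values were seen. They were the 5 *springer* calls with the highest ratios, at 4.9 (3L, from 19434626), 4.2 (2R, from 5751805), 3.0 (X, in an intron of *nAChRalpha3*, a nicotinic acetylcholine receptor subunit), 2.3 (3R, in *Lk6*, a kinase) and 1.6 (2R, in *sca*, a secreted protein of eye and bristle spacing).

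The *gypsy6* calls at these sites had ratios of 0.1 to 0.3 from 4 to 10 supporting reads, and they were 5 of the 6 *gypsy6* calls of the list. The other 15 *springer* calls, none above 0.8, overlapped no *gypsy6*. In the merged list 4 of 17 *springer* calls overlapped 1 of the 5 *gypsy6* calls. Whether reads of 1 insertion were assigned to both families was not tested.

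An insertion gives reads on both of its sides, and the split between them was tested for each call by a two-sided exact binomial test against equal numbers, adjusted by Benjamini-Hochberg over all 1702 calls. The test takes reads as independent and covers counting error only, while in this list both reads of a pair can come from the same stretch of 1 fragment. The numbers were unequal in 26 Gypsy-group calls (adjusted p under 0.05), 11.0% of 236 where 7.64% of all calls were. With pairs merged the numbers fell to 15 of 217 and, over all calls, from 130 to 50. _297_ had 9 of these, *Transpac* 6, *opus* 4 and *Quasimodo* 3, and _17.6_, *Burdock*, *gypsy* and *springer* 1 each. The first side had more reads in 12 and the second in 14, and 12 were on X. No call lacked reads on a side, and 7 had 1 read there.

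Those with the smallest p were a _297_ in the 3′ UTR of *fs(1)h*, a BET family chromatin protein, with 2 and 42 reads (exact binomial test, adjusted p = 1.92e-08), a *Transpac* in CG6959 with 11 and 64 (exact, adjusted p = 4.07e-08) and the *opus* in the 3′ UTR of CG16727 with 62 and 11 (exact, adjusted p = 1.03e-07). By the share of reads on 1 side, an *opus* in CG42747 with 1 and 26 was the most uneven (exact, adjusted p = 2.15e-05). 8 of the 26 had a ratio of at least 3. These 8 were the *Transpac* on 3R of ratio 8.3 (96 and 46 reads), those in *radish* (26 and 80, ratio 3.7) and CG7884 (66 and 34), the _17.6_ in *tbc* (26 and 82), the _297_ in CG34370 (34 and 72), the *springer* in *nAChRalpha3* (60 and 21) and 2 *opus* calls of ratio 3.0, in CG16727 and on 2R from 2675573 (58 and 20).

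The other uneven _297_ calls were on X (19 and 53, 13 and 34), 2L (51 and 11), 2R (13 and 48), 3L (9 and 33) and 3R (48 and 18, 35 and 12). For *Quasimodo* they were 38 and 7 in the 3′ UTR of CG17883, 3 and 26 on 2R, and 31 and 7 on X, and the *gypsy* on X beside CG11409 had 7 and 33. The remaining *Transpac* calls were on X (28 and 5 in *Cngl*, 3 and 29 from 21586444), an *opus* on 3L from 11477372 had 20 and 52, and a *Burdock* on X from 3096475 had 59 and 25. Unequal calls had a median of 64 supporting reads and the others 50.5. Of the 25 that were also in the merged list, 8 were unequal there.

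**Figure D4:**
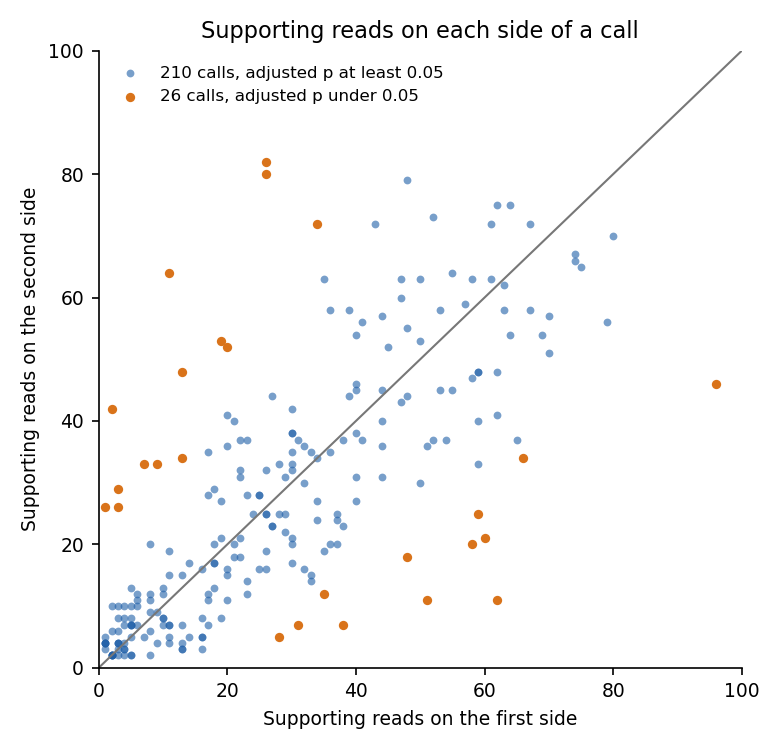
Supporting reads on the first and second side of each of the 236 calls, with the 26 calls of adjusted p under 0.05 (exact binomial test) in orange and equal numbers as a line. The *Transpac* on 3R lies farthest right, at 96 and 46 reads, and the _297_ in *fs(1)h* near the left edge, at 2 and 42.

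Most of the calls were found in both lists, 216 of 236 (91.5%, 87.2 to 94.7%) where 85.4% of all calls were. Their ratios had a Spearman correlation of 0.972 across the 216 calls, which share reads of 1 pool, and the median difference was 0.15. The ratios of 183 calls differed by at most 0.5. 49 calls stood at 3 or above in both lists, and 14 in 1 of them, of which 8 with reads treated as single-end and 6 with merged reads. None of the 14 had a ratio under 2.2 in its other list. The 20 calls found only with reads treated as single-end had a median of 6 supporting reads and 16 had at most 12, with the *Transpac* of 51 reads in *Cngl* as the best supported of them. The merged list added 1 call, a *rover* in an intron of *Pzl* on 3R with 14 reads and a ratio of 0.5.

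**Figure D5:**
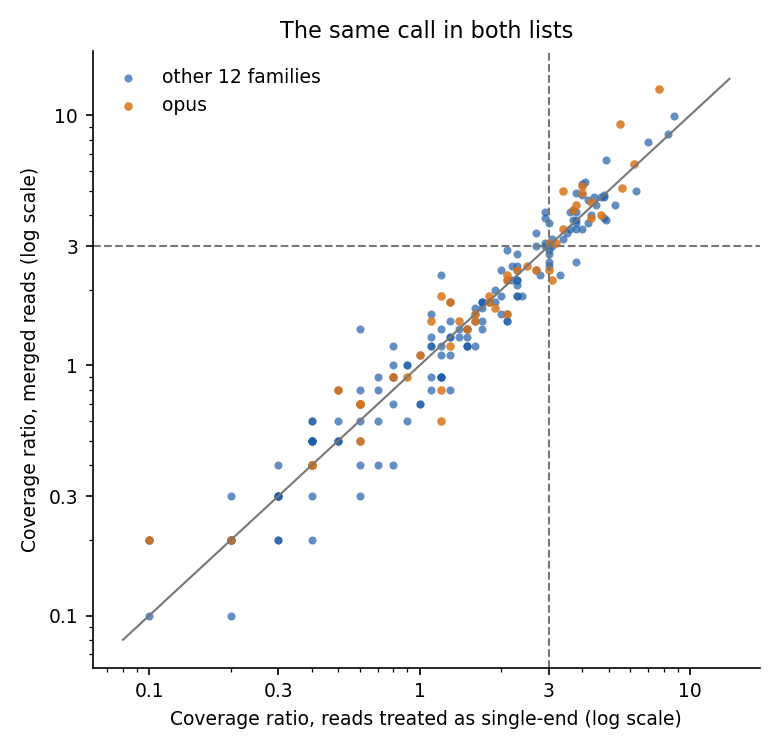
Coverage ratio of each of the 216 shared calls with reads treated as single-end (x axis, log scale) and with merged reads (y axis, log scale), *opus* in orange, equality as a solid line and a ratio of 3 as dashed lines. Points follow the line, and the *opus* in CR45347 lies highest, at 7.7 and 12.8.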

How the data were processed

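Genomic DNA libraries of ORw1118 adult females were filtered by the authors with Trim Galore, pooled over the 3 replicates and searched for TE insertions with TIDAL, once with paired reads treated as single-end and once with pairs merged and trimmed to 200 bp. Versions of these tools are not given in the sources used here. The authors deposited the supporting reads of each call as plain counts. The signal of reads crossing a site without the TE was deposited after a normalization by TIDAL that is not described. The coverage ratio deposited by the authors equals supporting reads over reference reads plus 1, within 0.051. The fraction of reads on the first side was deposited for each call, and with the count it gave the reads per side. The BLAT score deposited by the authors was not used for results.

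Shares have exact binomial (Clopper-Pearson) intervals and ratios exact Poisson intervals of the supporting reads, at 95%, for counting error only. Gene spans and current names came from RefSeq, Release 6, and all 150 gene names annotated to Gypsy-group calls in genes matched a gene over the call. The side test was tried on simulated data. Scripts ran in Python 3.11.15 with scipy 1.17.1 for the tests and intervals, pandas 2.3.3 and numpy 2.4.6 for tables, and matplotlib 3.10.9 for plots.

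The families, loci and tests were chosen with earlier results of these data known. Calls named are the highest of each family, those with a ratio of at least 3 in both lists, those in exons or UTRs with such a ratio in either list, those unequal between sides, genes with 2 or more calls and a list of loci known for *gypsy*. Calls just under the minimum, low calls of small families, *rhea*, *hoka* and the overlaps with *gypsy6* were named after their values were seen. Alternatives were other minimums, merged reads, more supporting reads, calls in both lists, other gene sets and the omission of *opus*.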

Additional observations from a re-analysis of the deposited data

How the results depend on the processing

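Of 36 alternatives tried over 18 results, 32 left the value within its interval, or a count within 1.5 times. With a minimum ratio of 2 the share of Gypsy-group calls was 38.6%, and with 4 it was 12.3%, in place of 24.2% at 3. X held 38.6% of calls with a ratio of at least 3, in place of 19.5% of all Gypsy-group calls. Unequal sides were found in 15 calls of the merged list, in place of 26, and the cause was not tested. The share of X calls at 3 or above ranged from 38.9% (without *opus*) to 53.5% (merged reads), and that of the autosome arms from 17.2% to 20.8%. The alternatives for the shares at 3 or above on X and on the arms, and that for the sides in the merged list, were chosen after seeing the data. No paired analysis was possible because the replicates were pooled before calling, and for the same reason no replicate could be left out. A search for a target site motif was planned and not run, since no genome was used here. The 20 calls absent from the merged list had a median of 6 supporting reads and a range of 4 to 51.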
